A study of Mus musculus with 7 samples.

Results

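Rotenone was set against control in neural cells grown from a mouse embryonic stem cell line, with 1 RNA library for each of the 2 conditions. These are 2 of the 7 libraries of a series that asked how insecticides harm the developing nervous system. The other 5 libraries, exposed to chlorpyrifos, DDT, carbaryl, deltamethrin and imidacloprid, give the spread used below. Cells of the B6G-2 line, labelled WT, went through embryoid bodies for 6 days and were grown as neural progenitors in RHB-A medium with bFGF and EGF. At day 14 they were moved to BrainPhys medium with B27 and received their insecticide for 1 day, and the control is labelled only as control. Neither a dose nor a vehicle is stated in the labels, which call the tissue brain although the cells came from a stem cell line. Because each condition has 1 library, no value below could be checked against a replicate, and p-values are not given.

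Each file lists transcript structures and their abundance in FPKM, which is fragments scaled to transcript length and library size. Such a structure, called an event here, can be where a transcript starts or ends, an exon that is skipped, an intron that is kept or an exon with alternative ends. Rotenone and control shared 79757 events, while 12472 were listed in rotenone but not in control and 11203 in control but not in rotenone. Of the 126309 events seen in any library, 3173 were listed in rotenone alone of the 7 and 3377 in control alone. A gene value is the mean of its summed start and summed end FPKM. It was used for the 6299 genes with at least 1 FPKM on average whose 2 sums differed by no more than 0.3 on the log2 scale. Differences are of log2(FPKM + 1), rotenone minus control, so they understate changes in genes of low level. Read depth is unknown, because the files used hold no counts.

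Rotenone blocks complex I, the first enzyme of the mitochondrial respiratory chain, and it also binds tubulin and hinders microtubule assembly. Cells meet mitochondrial failure in part through the integrated stress response, in which phosphorylation of the initiation factor eIF2 favours translation of the transcription factor ATF4. ATF4 then raises genes of amino acid supply, redox balance and stress signalling. Neural progenitors divide and draw on both glycolysis and respiration, and dopamine neurons are known for their sensitivity to complex I block.

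The culture expressed genes of progenitors and of young neurons. Vim, an intermediate filament of radial glia, stood at 987 FPKM with rotenone and 1062 FPKM in control, and Nes, the progenitor filament nestin, at 165 and 206 FPKM from the larger of its 2 sums. Dcx, a marker of young neurons, stood at 24.4 FPKM with rotenone and 26.4 FPKM in control. The mature astrocyte genes Gfap, Aqp4 and S100b were near 0, with Gfap at 0.476 FPKM with rotenone and 0.638 FPKM in control. The pluripotency factors Pou5f1 and Nanog had no event listed in either library, and no endothelial or blood marker could be used.

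Few genes moved far. Of the 6299 genes, 103 (1.64%) differed at least 2-fold between rotenone and control, 44 of them higher and 59 lower with rotenone. The other 5 insecticides gave between 101 and 134 such genes against the same control, so the count for rotenone lies inside that range. Set against the median of the other 6 libraries in place of control, 50 genes differed 2-fold, 15 higher and 35 lower with rotenone, and with a pseudocount of 5 FPKM 24 were higher and 17 lower than control. In 60 of the 103 (0.953% of genes) the rotenone value also lay outside all 6 other libraries, and the other insecticides gave between 52 and 79 by the same rule. Most genes, 93.7%, stayed within 1.5-fold of control. All 6 comparisons share 1 control library, so a control value that stands apart moves all of them.

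Rotenone and DDT were the extreme library more often than the others. Rotenone was the highest of the 7 in 1036 of the 6271 genes listed in both libraries (16.5%) and the lowest in 1008 (16.1%). Over all genes compared, rotenone was highest or lowest in 32.8%, DDT in 32.3%, and the other 5 libraries, control included, in between 26.6% and 27.5%. Relative to control, 51% of genes were higher and 49% were lower, and the median difference over all genes was 0.01. These shares are the background for the gene groups that follow.

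**Figure D1:**
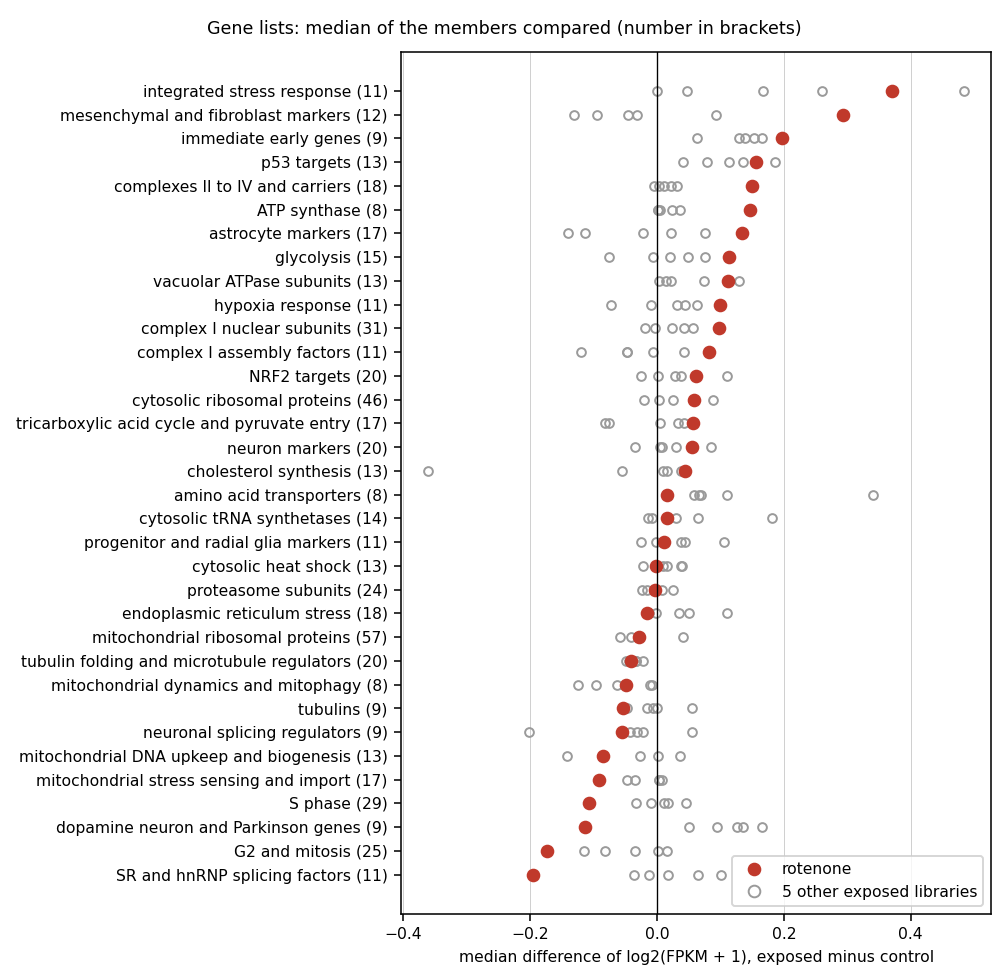
Median difference of log2(FPKM + 1) from control for each gene list, with a filled point for rotenone and an open one for each of the other 5 exposed libraries; the number of members used stands beside each list. Rotenone is the highest of the exposed libraries for complexes II to IV at 0.15 and for mesenchymal markers at 0.29, and the lowest for G2 and mitosis genes at -0.17.

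The integrated stress response was higher with rotenone, at a level below that of DDT. Of 22 genes on the list, 11 could be used, and all 11 of these were above control with a median difference of 0.37. The same median was 0.48 for DDT, 0.26 for chlorpyrifos and between -0.00 and 0.17 for the other 3 insecticides. The summed level of the 11 genes was 382 FPKM with rotenone and 316 FPKM in control, with 315 to 406 FPKM in the other exposed libraries. Rotenone was the highest of the 7 in 3 members and would be in 8 if DDT were left aside.

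Chac1, which degrades glutathione, was the only member past 2-fold. It stood at 6.52 FPKM with rotenone, at 4.33, 8.49, 2.49, 4.42 and 3.13 FPKM with chlorpyrifos, DDT, carbaryl, deltamethrin and imidacloprid, and at 2.10 FPKM in control, a log2 difference of 1.28. Trib3, a pseudokinase that restrains ATF4 and Akt signalling, stood at 2.14 FPKM with rotenone, at 1.95, 2.18, 0.427, 1.32 and 1.06 FPKM in the same order of insecticides, and at 0.656 FPKM in control. In both genes rotenone and DDT were the top libraries and control was among the lowest. Asns, asparagine synthetase, stood at 53.6 FPKM with rotenone, at 39.5, 52.8, 32.8, 39.4 and 35.2 FPKM with the other insecticides, and at 32.8 FPKM in control, a log2 difference of 0.69. Here rotenone was the highest library by a margin of only 0.02 over DDT on the log2 scale.

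Other members moved less. Slc7a11, the cystine importer, stood at 3.39 FPKM with rotenone and 1.76 FPKM in control, and Ddit3, the pro-death factor CHOP, at 8.81 and 6.59 FPKM. Vldlr, a lipoprotein receptor that ATF4 also regulates, stood at 8.55 FPKM with rotenone and 4.28 FPKM in control, but every other exposed library was between 6.64 and 9.12 FPKM, so the control was the low one. Atf4 itself stood at 118 FPKM with rotenone and 102 FPKM in control, with DDT at 134 FPKM and the other exposed libraries between 101 and 110.2 FPKM. Gdf15, a secreted stress hormone, had no event listed with rotenone and so no fold, and stood at 0.895 FPKM in control and 6.93 FPKM with DDT. Cth and Atf5 could not be compared because their start and end sums disagreed.

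The promoters of the members that differed most are shown because ATF4 binds DNA directly. They are RefSeq sequences of GRCm38.p6, from 250 bases before to 50 bases after the gene start, written 5′ to 3′ on the gene's strand, with the letters TGATGNAA on either strand in capitals. They are Chac1 at chr2:119350992-119351291 on the plus strand, Trib3 at chr2:152344011-152344310 on the minus strand and Asns at chr6:7693160-7693459 on the minus strand.
Chac1: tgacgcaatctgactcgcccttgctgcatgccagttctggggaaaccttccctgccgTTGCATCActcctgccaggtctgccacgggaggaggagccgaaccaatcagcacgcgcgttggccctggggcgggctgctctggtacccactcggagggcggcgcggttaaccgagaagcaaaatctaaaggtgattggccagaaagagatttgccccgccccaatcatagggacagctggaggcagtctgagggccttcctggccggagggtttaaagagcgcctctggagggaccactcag
Trib3: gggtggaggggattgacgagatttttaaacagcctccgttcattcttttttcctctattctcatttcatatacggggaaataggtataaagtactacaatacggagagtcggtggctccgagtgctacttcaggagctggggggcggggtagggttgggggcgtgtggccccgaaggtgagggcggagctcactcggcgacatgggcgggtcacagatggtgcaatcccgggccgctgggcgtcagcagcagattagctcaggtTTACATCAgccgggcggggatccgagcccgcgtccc
Asns: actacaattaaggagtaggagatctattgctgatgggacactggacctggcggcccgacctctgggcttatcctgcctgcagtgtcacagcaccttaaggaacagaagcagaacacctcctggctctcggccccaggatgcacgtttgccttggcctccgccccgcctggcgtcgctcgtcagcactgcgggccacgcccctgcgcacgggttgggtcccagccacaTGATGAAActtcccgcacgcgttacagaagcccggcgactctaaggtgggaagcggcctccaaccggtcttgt
These letters were found in 4 of the 10 members with a promoter sequence (40%), which were Asns, Chac1, Slc7a11 and Trib3, and in 89 of 4767 promoters of all genes compared (1.87%). The match begins 193 bases before the start of Chac1, 23 bases before that of Asns and 14 bases after that of Trib3. A match describes the sequence and is no evidence of binding in these cells. The promoter of Vldlr holds no match in this window.

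Related programmes of amino acid supply were mixed. Of 14 cytosolic tRNA synthetases used, 8 were higher and 6 were lower, with a median of 0.02, against medians between -0.01 and 0.18 for the other insecticides. Of 8 amino acid transporters, 4 were higher and 4 lower with a median of 0.02, below the 0.06 to 0.34 of the other 5 insecticides. Of 7 enzymes of serine and one-carbon metabolism, 2 were higher and 5 lower with a median of -0.08. Genes of the endoplasmic reticulum stress list split into 8 higher and 10 lower.

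The nuclear-encoded respiratory chain was higher with rotenone across its complexes. Of 84 subunits and carriers on 3 lists, 57 could be used, and 49 of these were above control while 8 were below. Rotenone was the highest of the 7 libraries in 28 of the 57 (49.1%) and the lowest in 0, where over all genes these shares were 16.5% and 16.1%. Each of the other 6 libraries was the highest in between 3 and 8 of these genes. The differences were small, with a median of 0.13, against medians between -0.02 and 0.05 with the other insecticides. Only Ndufa7 passed 2-fold.

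Members of this group are short and abundant, with a median transcript length of 686 bases and a median level of 76.4 FPKM. Rotenone was the highest library in 18.9% of all genes with transcripts under 700 bases and in 19.7% of all genes at 100 FPKM or more. The part that transcript length and level play in the respiratory result was not tested beyond these shares. In bulk RNA, fewer cells of a type and less RNA per cell cannot be told apart.

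In complex I, the target of rotenone, 24 of 31 subunits used were higher and 7 lower. Their median was 0.10, against -0.02 to 0.06 for the other insecticides. Against the median of the other 6 libraries in place of control that median was 0.04. The sum over the 31 subunits was 2605 FPKM with rotenone and 2348 FPKM in control. That sum lay inside the 2372 to 2616 FPKM of the other exposed libraries. The list has 37 subunits. Ndufa7, an accessory subunit, stood at 130.3 FPKM with rotenone, at 59.1, 62.2, 74.5, 79.0 and 70.4 FPKM with chlorpyrifos, DDT, carbaryl, deltamethrin and imidacloprid, and at 59.2 FPKM in control, a log2 difference of 1.12. Rotenone lay above all 6 other libraries by 0.71 on the log2 scale. Most of that level came from 1 start event of Ndufa7, which held 126 FPKM with rotenone and 29.5 FPKM in control, where a second start event held 27.7 FPKM. In Ndufa4, an accessory protein now counted with complex IV, rotenone was the highest library at 232 FPKM, against 185 FPKM in control and 173 to 220.2 FPKM elsewhere. Ndufb3 stood at 55.0 FPKM with rotenone and 47.7 FPKM in control, the next highest library. Ndufv1, which carries the flavin site where NADH is oxidised, was at 38.2 FPKM with rotenone and 24.5 FPKM in control, but ran from 23.0 to 63.5 FPKM elsewhere and does not set rotenone apart. Ndufb5 had the most negative difference of the list, at 39.98 FPKM with rotenone and 66.4 FPKM in control, inside the 27.8 to 79.3 FPKM of the others.

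In complexes II to IV with the electron carriers, all 18 members used of a list of 31 were above control, and rotenone was the highest library in 12. Their sum was 1889 FPKM with rotenone and 1682 FPKM in control, above the 1680 to 1724 FPKM of the other exposed libraries. Uqcrc2, a core subunit of complex III, stood at 95.2 FPKM with rotenone, 62.4 to 87.0 FPKM in the other exposed libraries and 70.2 FPKM in control. Sdhc, the membrane anchor of complex II, stood at 45.9 FPKM with rotenone, 26.8 to 43.3 FPKM in the others and 32.2 FPKM in control. Cox7c of complex IV stood at 310.4 FPKM with rotenone, 258 to 284 FPKM in the others and 262 FPKM in control. In each of these 3 genes the rotenone value was above every other library. Coq9, needed to make ubiquinone, and Cycs, the carrier cytochrome c, were also highest with rotenone, at 24.3 and 60.7 FPKM against 20.2 and 57.0 FPKM in control.

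In ATP synthase, 7 of 8 members used of a list of 16 were higher, with a median of 0.15. Atp5g3, which encodes the rotor ring subunit c, stood at 470.1 FPKM with rotenone, at 356, 345, 348, 339 and 361 FPKM with chlorpyrifos, DDT, carbaryl, deltamethrin and imidacloprid, and at 346 FPKM in control, a log2 difference of 0.44. The 6 other libraries lay close together and rotenone lay well above them. Atp5g1, a second gene for the same protein, stood at 73.8 FPKM with rotenone and 55.4 FPKM in control, with 44.1 to 69.6 FPKM elsewhere. Atp5j2 was the 1 member below control, at 113 FPKM with rotenone and 140.2 FPKM in control. The mitochondrially encoded subunits have no event in these files and were not analysed here.

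**Figure D2:**
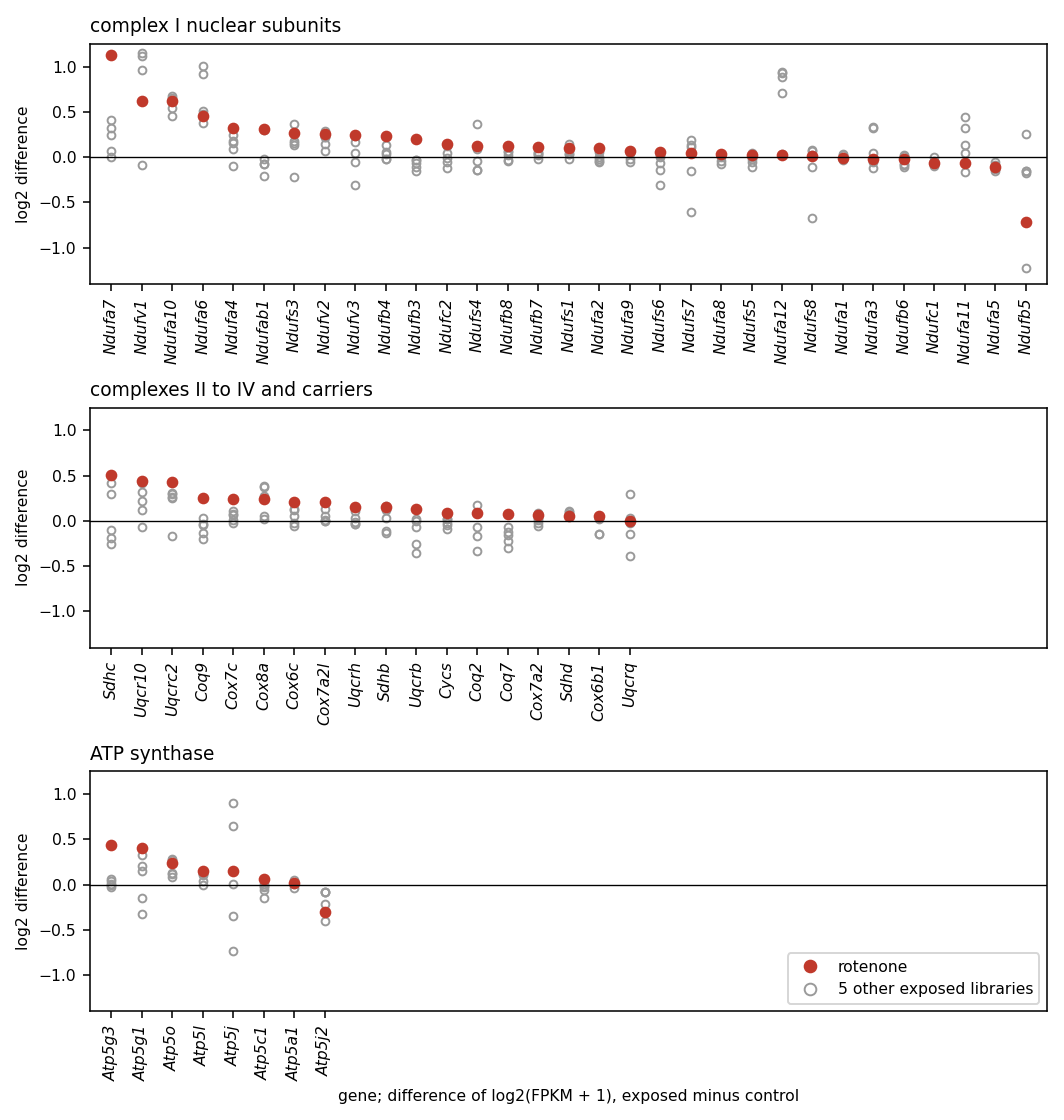
Difference of log2(FPKM + 1) from control for each respiratory chain and ATP synthase gene used, in 3 panels, with 1 point for rotenone and 1 for each other exposed library. Rotenone is above 0 in 49 of 57 genes, with Ndufa7 at 1.12 and Atp5g3 at 0.44.

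The promoter letters known for respiratory genes, searched after these values were seen, were found in a minority of them. The NRF1 core CGCATGCG was found in 4 of 49 promoters (8.16%) and in 4.36% of all promoters, on either strand. The letters AAGGTCA, a core part of the ERR response element, were found in 5 of 49 (10.2%) and in 2.37% of all. Cycs, a textbook target of NRF1, holds the core 61 bases before its start, shown here in capitals in the RefSeq promoter at chr6:50566520-50566819 on the minus strand of GRCm38.p6.
Cycs: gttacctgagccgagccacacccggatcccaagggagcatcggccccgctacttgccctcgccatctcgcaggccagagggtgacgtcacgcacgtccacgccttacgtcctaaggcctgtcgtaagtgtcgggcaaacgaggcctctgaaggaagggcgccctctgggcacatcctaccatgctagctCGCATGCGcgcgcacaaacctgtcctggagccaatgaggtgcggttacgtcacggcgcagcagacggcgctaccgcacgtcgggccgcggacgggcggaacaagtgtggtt

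Other mitochondrial groups were mixed. Of 17 genes of the citric acid cycle and pyruvate entry used, 13 were higher and 4 lower, with a median of 0.06 against -0.08 to 0.04 for the other insecticides, and rotenone was the highest library in 6 and the lowest in 1. Of 11 assembly factors of complex I, 6 were higher and 5 lower, with a median of 0.08 against -0.12 to 0.04. Of 57 mitochondrial ribosomal proteins used, 24 were higher and 33 lower, with a median of -0.03. Of 17 genes of mitochondrial stress sensing and import, 7 were higher and 10 lower, with a median of -0.09, below the -0.05 to 0.01 of the other insecticides. Among these, Hspa9, the matrix Hsp70 chaperone, was highest with rotenone at 191 FPKM against 168 FPKM in control, while the proteases Yme1l1 and Afg3l2 and the unfoldase Clpx were at their lowest with rotenone. Htra2, a protease of the intermembrane space, stood at 13.2 FPKM with rotenone, 15.8 to 23.3 FPKM in the other exposed libraries and 23.2 FPKM in control. Tufm, the mitochondrial elongation factor, stood at 33.7 FPKM with rotenone, 52.1 to 64.6 FPKM in the others and 62.4 FPKM in control. Ogdh, the first subunit of the 2-oxoglutarate dehydrogenase and the 1 member of the citric acid cycle list in which rotenone was the lowest library, stood at 27.6 FPKM with rotenone, 40.3 to 50.4 FPKM in the others and 43.7 FPKM in control. For Htra2, Tufm and Ogdh the rotenone library was below every other.

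Of 15 glycolysis genes used, 12 were higher and 3 lower with a median of 0.11, and rotenone was the highest library in 6. Ldhb, a lactate dehydrogenase subunit, stood at 132 FPKM with rotenone and 112 FPKM in control, with 53.7 to 113 FPKM elsewhere. Of 11 hypoxia response genes, 9 were higher and 2 lower, with a median of 0.10. Vegfa, the endothelial growth factor, stood at 12.1 FPKM with rotenone and 9.51 FPKM in control, second to DDT at 13.7 FPKM. Egln3, an oxygen sensor and hypoxia target, was lowest with rotenone, at 4.22 FPKM against 5.496 FPKM in control. Of 20 NRF2 targets, which answer oxidative stress, 14 were higher and 6 lower with a median of 0.06, inside the range of the other insecticides.

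Genes of dividing cells were lower with rotenone. Of 25 G2 and mitosis genes used of a list of 42, 23 were below control and 2 above. Their median was -0.17, against -0.11 to 0.02 for the other insecticides. Rotenone was the lowest of the 7 libraries in 10 of the 25 and the highest in 0. DDT came close to this, with a median of -0.11, and was the lowest library in 8 and the highest in 0. Imidacloprid was the highest library in 12. Of 29 S phase genes used of 38, 18 were lower and 11 higher, with a median of -0.11 against -0.03 to 0.05, and rotenone was again the lowest library in 10 and the highest in 0.

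Kif22, a chromosome-moving kinesin of the mitotic spindle, had the largest difference of all named genes. It stood at 1.13 FPKM with rotenone, at 22.6, 20.3, 23.0, 21.9 and 23.7 FPKM with chlorpyrifos, DDT, carbaryl, deltamethrin and imidacloprid, and at 22.1 FPKM in control, a log2 difference of -3.44. The 6 other libraries lay close together and rotenone far below them. Its start event at the annotated promoter held 0.624 FPKM with rotenone and 21.8 FPKM in control. No other member of the list was near this size. Cenpf, a kinetochore protein, stood at 13.0 FPKM with rotenone, 14.3 to 16.5 FPKM in the other exposed libraries and 17.3 FPKM in control. Plk1, a kinase that drives mitotic entry, stood at 53.5 FPKM with rotenone, 56.1 to 66.7 FPKM in the others and 61.3 FPKM in control. Bub3, of the spindle checkpoint, stood at 44.4 FPKM with rotenone, 48.2 to 53.03 FPKM in the others and 50.5 FPKM in control. Cdk1, the mitotic kinase itself, was above control, at 22.4 FPKM with rotenone and 18.9 FPKM in control, which was the lowest library.

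Among S phase genes, Mcm2, a subunit of the replicative helicase, stood at 53.2 FPKM with rotenone, 58.1 to 63.4 FPKM in the other exposed libraries and 61.3 FPKM in control. Mcm3 of the same helicase stood at 61.2 FPKM with rotenone, 65.1 to 71.1 FPKM in the others and 68.7 FPKM in control. Prim2, a primase subunit, was also lowest with rotenone, at 16.4 FPKM against 19.9 FPKM in control. Rrm1 and Cdc6 were lower than control but within the other exposed libraries, because the control was the highest library in both. The sum over the 29 genes was 1069 FPKM with rotenone, 1089 to 1161 FPKM in the others and 1122 FPKM in control.

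Many mitotic promoters hold the cell cycle homology region, read here as TTTGAA on either strand and searched after the values were seen. It was found in 17 of 21 promoters of the G2 and mitosis genes used (81.0%) and in 10.97% of all 4767 promoters. Kif22, at chr7:127042371-127042670, and Cenpf, at chr1:189688037-189688336, both on the minus strand, are shown with these letters in capitals, from RefSeq on GRCm38.p6.
Kif22: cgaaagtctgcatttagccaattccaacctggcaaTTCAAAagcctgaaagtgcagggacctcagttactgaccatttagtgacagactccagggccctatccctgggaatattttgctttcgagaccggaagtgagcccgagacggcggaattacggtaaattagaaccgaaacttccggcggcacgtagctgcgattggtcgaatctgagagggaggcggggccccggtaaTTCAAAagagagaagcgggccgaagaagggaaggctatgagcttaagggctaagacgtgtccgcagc
Cenpf: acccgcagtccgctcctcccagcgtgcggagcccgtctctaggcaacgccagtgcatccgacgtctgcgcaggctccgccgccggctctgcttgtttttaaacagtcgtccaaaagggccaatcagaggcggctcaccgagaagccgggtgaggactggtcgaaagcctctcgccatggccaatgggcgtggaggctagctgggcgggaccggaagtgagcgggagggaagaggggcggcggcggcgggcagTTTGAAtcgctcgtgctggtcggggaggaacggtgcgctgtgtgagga
Kif22 holds 2 matches and Cenpf 1. The promoter of Ccnb1 holds none in this window. The motif is shared by genes that moved a great deal and genes that moved little.

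Tubulins, the other known target of rotenone, did not move together. Of 9 used, 2 were higher and 7 lower, with a median of -0.05. Tubb5, the main beta tubulin of these cells, stood at 1090 FPKM with rotenone, at 817, 804, 791, 781 and 848 FPKM with chlorpyrifos, DDT, carbaryl, deltamethrin and imidacloprid, and at 818 FPKM in control, a log2 difference of 0.41. Rotenone was above all 6 others, which lay close together. Tubg2, a gamma tubulin, was lowest with rotenone at 0.222 FPKM against 0.893 FPKM in control. Regulators of tubulin folding and of microtubules split into 7 higher and 13 lower.

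Markers of mesenchymal cells were higher with rotenone. All 12 members used, of a list of 20, were above control, with a median of 0.29 against -0.13 to 0.09 for the other insecticides, and rotenone was the highest library in 9. Acta2, smooth muscle actin, stood at 6.98 FPKM with rotenone, at 3.61, 2.79, 3.84, 4.43 and 4.41 FPKM with chlorpyrifos, DDT, carbaryl, deltamethrin and imidacloprid, and at 3.59 FPKM in control. Postn, the matrix protein periostin, stood at 4.14 FPKM with rotenone, 1.76 to 3.33 FPKM in the other exposed libraries and 2.31 FPKM in control. Both genes were highest with rotenone. Ccn1 and Ccn2, matrix proteins induced by YAP and TGF-beta, were also highest, at 4.38 and 3.36 FPKM against 3.35 and 2.49 FPKM in control. These are low levels, and the 12 genes summed to 55.0 FPKM with rotenone, 38.4 to 42.3 FPKM in the other exposed libraries and 42.9 FPKM in control. The part that the share of such cells plays in the other results was not tested.

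**Figure D3:**
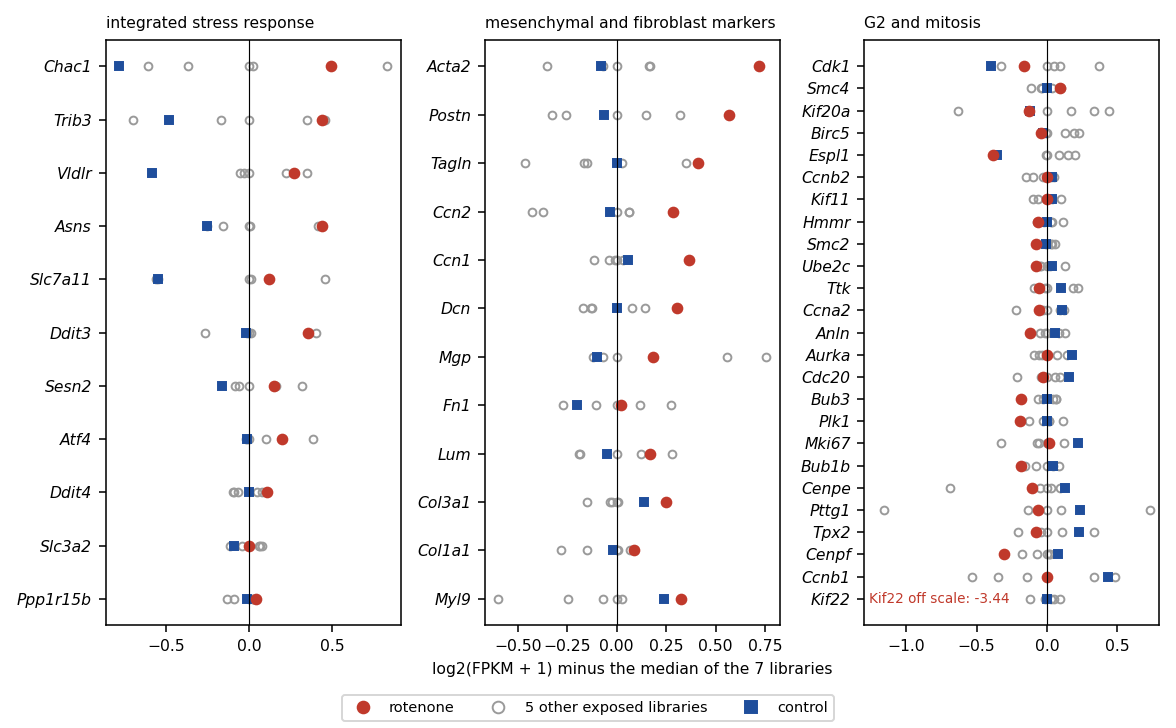
Level of each gene in each of the 7 libraries, as log2(FPKM + 1) minus the median of the 7 libraries, in 3 panels for the integrated stress response, mesenchymal markers and G2 and mitosis genes; filled circles are rotenone, open circles the other exposed libraries and squares control. Chac1, Trib3 and Asns have rotenone near the top beside DDT, Acta2 and Postn have it highest, and Kif22 with rotenone lies beyond the axis, at a log2 difference of -3.44 from control.

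Of 17 astrocyte markers used of a list of 30, 12 were higher and 5 lower, with a median of 0.13 against -0.14 to 0.08 elsewhere. Rotenone was the highest library in 8 and the lowest in 1. Mt2, a metallothionein that binds zinc and copper, stood at 131 FPKM with rotenone, at 83.4, 83.3, 91.0, 103 and 101 FPKM with chlorpyrifos, DDT, carbaryl, deltamethrin and imidacloprid, and at 85.4 FPKM in control. Its relatives Mt3 and Mt1 were also highest with rotenone, at 307 and 175 FPKM against 247 and 158 FPKM in control. Ndrg2 stood at 10.5 FPKM with rotenone, 4.80 to 8.34 FPKM in the other exposed libraries and 7.53 FPKM in control. In each of these 4 genes rotenone was above the other 6 libraries. Sox9, a gliogenic transcription factor, was lowest with rotenone by a small margin, at 21.4 FPKM against 22.7 FPKM in control. Apoe could not be compared because its start and end sums disagreed, and Gfap, Aqp4 and S100b were under 1 FPKM on average.

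Among progenitor markers, 6 of 11 used were higher and 5 lower, with a median of 0.01. Tnc, the matrix protein tenascin C of radial glia, stood at 28.2 FPKM with rotenone, at 50.5, 44.2, 42.6, 45.6 and 44.3 FPKM with chlorpyrifos, DDT, carbaryl, deltamethrin and imidacloprid, and at 50.5 FPKM in control, a log2 difference of -0.82. Vim was also lowest with rotenone, with the other exposed libraries at 1043 to 1221 FPKM. Hes5 and Id1, which hold cells in the progenitor state, were highest with rotenone, at 9.98 and 39.4 FPKM against 8.23 and 31.2 FPKM in control. Among neuron markers, 11 of 20 were higher and 9 lower, with a median of 0.06. Gap43, a growth cone protein, was lowest with rotenone at 153 FPKM, with 160.2 to 195 FPKM in the others and 180.3 FPKM in control. Syt1, the calcium sensor of vesicle release, stood at 12.3 FPKM with rotenone and 3.07 FPKM in control, but all other libraries lay between 11.5 and 14.7 FPKM, so the control was the low one.

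Of 13 genes of cholesterol synthesis used, 7 were higher and 6 lower, and rotenone was the highest library in those 7 and the lowest in 0. The 1 member past 2-fold was Stard4, a sterol carrier, at 7.55 FPKM with rotenone, 3.64 to 20.2 FPKM in the others and 20.5 FPKM in control. Hmgcs1, which makes the precursor of mevalonate, stood at 299 FPKM with rotenone, 180.5 to 268 FPKM in the others and 254 FPKM in control. Lss, lanosterol synthase, stood at 34.5 FPKM with rotenone, 15.2 to 32.2 FPKM in the others and 27.5 FPKM in control. The list median was 0.04 with rotenone and between -0.36 and 0.04 with the others, and the lowest values of both genes were with DDT. SR and hnRNP splicing factors were lower, 8 of 11, with a median of -0.20 against -0.04 to 0.10. That median shrank to -0.12 where starts and ends had to agree within 0.15 and where no agreement was asked. Rotenone was the lowest library in 2 of the 11 splicing factors and the highest in 2. The 11 genes summed to 1193 FPKM with rotenone, inside the 1118 to 1508 FPKM of the other exposed libraries, and to 1347 FPKM in control. Hnrnpd, which binds AU-rich RNA, was lowest with rotenone at 109 FPKM, with 134 to 183 FPKM in the others and 131 FPKM in control.

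The genes that stood farthest from all 6 other libraries were taken by a fixed rule: 2-fold from control, at least 5 FPKM on average and ranked by the distance to the nearest other library. The rule left 11 higher and 20 lower genes. Only 2 of the higher genes were clear of the other libraries by more than 0.14 on the log2 scale, Ndufa7 and Lars2. Lars2, the mitochondrial leucyl-tRNA synthetase, stood at 69.4 FPKM with rotenone, at 42.0, 35.7, 39.1, 42.4 and 29.9 FPKM with chlorpyrifos, DDT, carbaryl, deltamethrin and imidacloprid, and at 24.6 FPKM in control. Its upstream start event held 30.8 FPKM with rotenone, 29.7 to 41.8 FPKM in the other exposed libraries and 24.4 FPKM in control. A second, downstream start of Lars2 at chr9:123454790-123455037 on GRCm38 held 38.2 FPKM with rotenone and 0.0102 to 0.0169 FPKM in the other 6 libraries. The difference of rotenone from the other exposed libraries in Lars2 stands in that downstream start. For the other 9 higher genes, Lgalsl, Nipa2, Rab28, Ptgr2, Mmp14, Dcxr, Capza2, Swi5 and Me2, other exposed libraries came within 0.02 to 0.14 of the rotenone value. Mmp14, a membrane matrix protease, stood at 34.8 FPKM with rotenone and 11.9 FPKM in control, with 29.2 to 33.0 FPKM in all other libraries.

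Among the 12 lower genes farthest from the other libraries, the distance was at least 0.55 on the log2 scale. After Kif22 came Tprgl, a presynaptic protein, at 12.1 FPKM with rotenone, 37.8 to 44.5 FPKM in the other exposed libraries and 38.2 FPKM in control. Fam53a stood at 3.60 FPKM with rotenone, 10.5 to 13.2 FPKM in the others and 11.5 FPKM in control. Its main start held 1.17 FPKM with rotenone and 10.9 FPKM in control. A second start of Fam53a held 2.97 FPKM with rotenone, 2.35 FPKM with DDT and 0.485 FPKM in control. Cpt2, which completes the import of fatty acids into the mitochondrion for oxidation, stood at 2.25 FPKM with rotenone, at 8.88, 6.60, 5.81, 7.13 and 7.70 FPKM with chlorpyrifos, DDT, carbaryl, deltamethrin and imidacloprid, and at 6.09 FPKM in control. Atp6v1a, the catalytic subunit of the vacuolar proton pump, stood at 15.6 FPKM with rotenone, 33.1 to 35.3 FPKM in the others and 33.0 FPKM in control. Its starts went both ways. The main start in control held 2.28 FPKM with rotenone and 29.7 FPKM in control, and another held 11.3 and 3.04 FPKM. By gene value rotenone lay below every other library in these genes, and the 6 others lay closest together in Atp6v1a. The pump subunits did not move together, since 8 of 13 vacuolar ATPase genes used were above control and 5 below. Rotenone was the highest library in 6 of the 13 and the lowest in 3, Atp6v1a among them. Naa20, Fut11, Scly, Ube2k, Cdc23, Snx10 and Hikeshi were the rest of the 12 lower genes with the widest distance. In the remaining 8 of the 20, another library came closer to rotenone, as in Brwd1, at 5.64 FPKM with rotenone, 5.88 to 18.8 FPKM in the other exposed libraries and 19.0 FPKM in control, and in Ptk2, at 12.4 FPKM with rotenone, 13.2 FPKM with carbaryl and 28.1 FPKM in control. Cdc23, a subunit of the anaphase-promoting complex, stood at 10.2 FPKM with rotenone, 17.2 to 21.9 FPKM in the others and 23.5 FPKM in control.

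**Figure D4:**
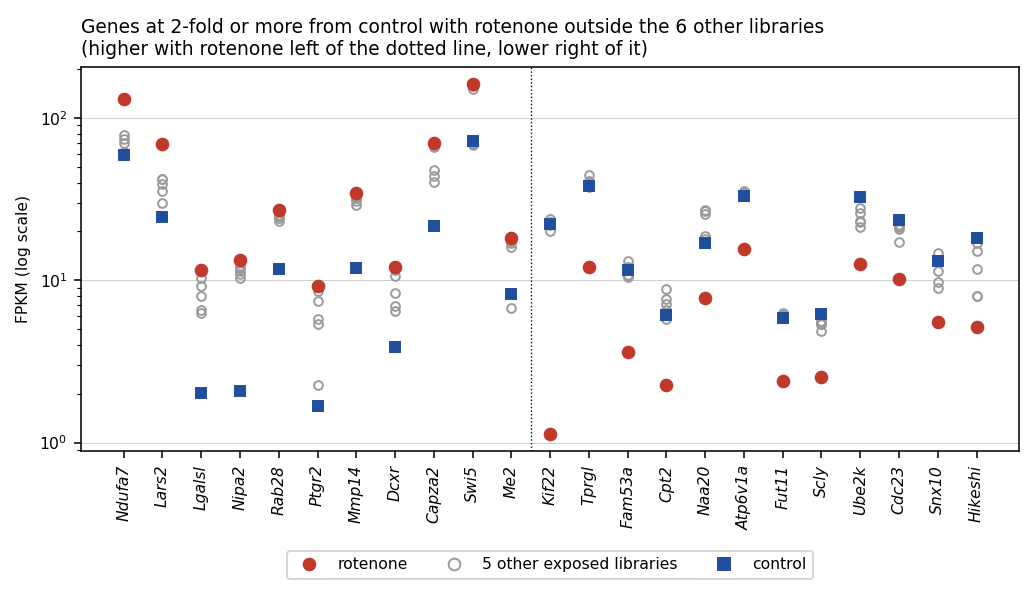
FPKM on a log axis in each of the 7 libraries, for the genes farthest from the other libraries, with filled circles for rotenone, open circles for the other exposed libraries and squares for control. Kif22 is at 1.13 FPKM with rotenone while the 6 others are between 20.3 and 23.7 FPKM, and in Mmp14 the control, at 11.9 FPKM, is the low library.

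Single events differed more often than genes. At 2-fold or more were 1581 of 13369 start events (11.8%), 446 of 8482 end events (5.26%), 2645 of 19285 skipped exon forms (13.7%), 841 of 6603 retained intron forms (12.7%) and 958 of 8678 alternative exon forms (11%). For start events the other insecticides gave 11.7% to 12.5%, for skipped exon forms 13.0% to 14.1% and for alternative exon forms 10.8% to 10.9%. Rotenone gave a smaller share than each of the other insecticides for end events, which were at 5.48% to 5.98%, and for retained intron forms, at 13.2% to 13.9%.

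Inclusion of an exon was read as the share of FPKM held by the form with the exon. Of 713 microexons, single exons of 51 bases or less, 89 (12.5%) differed by at least 20 points, against 94 to 107 with the other insecticides. Of 4721 longer exons, 463 (9.81%) differed, and of 978 groups of exons skipped together, 74 (7.57%) did, both inside the range of the others. Retained introns differed in 166 of 1991 cases (8.34%), above the 133 to 155 of the other insecticides. In 62 of the 166 introns rotenone also lay outside the other 6 libraries, inside the 45 to 66 that the other insecticides gave by this rule. Alternative exon ends differed in 316 of 2945 exons (10.7%), against 318 to 326. The use of starts differed by at least 30 points in 204 of 2580 genes (7.91%) and the use of ends in 56 of 1335 genes (4.19%), against 216 to 229 and 49 to 55 genes with the other insecticides. A form that is not listed counts as 0 in these shares. They come from estimated transcript levels, so a switch between 2 similar forms of one gene can move them from near 0 to near 100.

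Among exons that differed by at least 20 points, rotenone lay outside all 6 other libraries in 30 microexons and 179 longer exons. By the same rule the other insecticides gave 34 to 46 microexons and 185 to 225 longer exons, so rotenone had fewer of both. Some of the rotenone microexons are shown with their sequence. The exons are those of GENCODE M21 on GRCm38, written whole, 5′ to 3′ on the gene's strand, with no base marked. They are Zc3hc1 at chr6:30369933-30369976, Map2k4 at chr11:65775733-65775765, Mef2a at chr7:67244521-67244544, Nf2 at chr11:4780578-4780622, all on the minus strand, and Clpx at chr9:65312098-65312139 on the plus strand.
Zc3hc1: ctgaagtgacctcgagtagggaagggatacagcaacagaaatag
Map2k4: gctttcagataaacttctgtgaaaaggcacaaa
Mef2a: tcggaggaagaggaattggagttg
Nf2: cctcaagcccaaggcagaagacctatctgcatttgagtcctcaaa
Clpx: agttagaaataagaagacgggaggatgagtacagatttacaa
The exons of Map2k4, Mef2a, Nf2 and Clpx have 33, 24, 45 and 42 bases, which are multiples of 3, and that of Zc3hc1 has 44 bases, which is not.

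Zc3hc1, a zinc finger protein of the nuclear pore basket, had the largest change among microexons. Its exon was held by 87.6% of FPKM with rotenone, by 1.75%, 0%, 4.75%, 0% and 1.903% with chlorpyrifos, DDT, carbaryl, deltamethrin and imidacloprid, and by 0% in control. Map2k4, a kinase that activates JNK in stressed cells, included its exon at 77.0% with rotenone, at 11.2%, 3.65%, 11.2%, 10.3% and 1.13% with the other insecticides in the same order, and at 0.739% in control. In both genes rotenone alone was high, and named events were chosen with rotenone outside the other 6 libraries. Mef2a, a transcription factor of muscle and neurons, included the exon known as beta at 70.2% with rotenone, at 21.1%, 0%, 30.9%, 9.88% and 13.0% with the other insecticides, and at 25.0% in control. The other libraries spread over 30.9 points in Mef2a and rotenone lay above them.

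Clpx, the unfoldase that feeds the matrix protease ClpP, had less of its microexon. The exon was included at 39.3% with rotenone, at 95.0%, 79.7%, 83.6%, 84.1% and 90.9% with chlorpyrifos, DDT, carbaryl, deltamethrin and imidacloprid, and at 90.3% in control. Nf2, the tumour suppressor merlin, included its exon 16 at 2.36% with rotenone, at 33.3%, 19.9%, 26.6%, 27.9% and 15.6% with the other insecticides, and at 49.0% in control. Rotenone was the lowest library in both, and in Nf2 the control was the highest. Usp34, a deubiquitinase, included a microexon of 36 bases at 30.3% with rotenone, 50.8% to 83.1% in the others and 70.7% in control. Myo5a, a myosin that carries vesicles, included an exon of 9 bases at 62.2% with rotenone, 0% to 29.8% in the others and 0% in control. In Pak3 and Add1, 2 other exposed libraries each also included the exon in most of the FPKM, between 56.0% and 71.7%, so rotenone was not alone in it.

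Among longer exons, Vopp1 included an exon of 157 bases at 88.1% with rotenone, 5.21% to 7.75% in the other exposed libraries and 4.35% in control. Its sum of both forms was 27.6 FPKM with rotenone and 25.2 FPKM in control, so the gene's level hardly differed. Pcyt2, which makes the activated head group of phosphatidylethanolamine, included an exon of 238 bases at 4.78% with rotenone, 53.7% to 100% in the others and 85.4% in control. At its alternative end the short form of 54 bases of Pcyt2 took 95.7% with rotenone, 0% in the other exposed libraries and 10.5% in control. This short form lies within the exon of 238 bases, so the 2 shares of Pcyt2 both count the long form and are not independent. Mcf2l, a guanine nucleotide exchange factor, included an exon of 84 bases at 97.1% with rotenone, 1.15% to 39.0% in the others and 18.6% in control. Skp1a, the adaptor of SCF ubiquitin ligases, was the clearest case of exons skipped together. The form of Skp1a with both of its exons held 60.7% with rotenone and 0% in the other 6 libraries, at sums between 137 and 159 FPKM.

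Of the 166 introns that differed by at least 20 points, 85 were kept more and 81 less with rotenone. The named cases were taken from both sides by rule. Aaas, the nuclear pore protein aladin, kept an intron of 71 bases at 59.3% with rotenone, at 0.0274%, 3.98%, 0.00900%, 0% and 7.33% with chlorpyrifos, DDT, carbaryl, deltamethrin and imidacloprid, and at 0.0105% in control. Tmem161a kept an intron of 86 bases at 50.9% with rotenone, 0.620% to 7.92% in the others and 0.445% in control. Rotenone was far above the rest in both, and the choice of named events required it to lie outside the other 6 libraries. In E2f1, the transcription factor that drives entry into S phase, the form with the intron fell to 0% with rotenone, against 35.7% in control and 19.8% to 55.6% in the others. Ogt, the enzyme that adds O-GlcNAc and is known to retain an intron when this sugar is plentiful, was at 0% with rotenone, 21.9% to 36.1% in the others and 30.5% in control. The gene value of E2f1 did not differ, with a log2 difference of 0.00.

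Some genes differed in the start or end in use, and those named were chosen with rotenone outside the other 6 libraries. Bcl7a, a subunit of BAF chromatin remodelling complexes, drew 94.0% of its start FPKM from 1 start with rotenone, 0% to 7.78% in the other exposed libraries and 7.03% in control, at sums of 15.2 FPKM with rotenone and 13.4 FPKM in control. Safb, a scaffold protein of the nuclear matrix, drew 5.09% from its main start with rotenone, 80.8% to 95.0% in the others and 89.95% in control, at sums of 34.9 FPKM with rotenone and 48.0 FPKM in control. Mesd, a chaperone of Wnt co-receptors, drew 99.2% from a start with the same first base but a longer first exon with rotenone, 1.41% to 27.4% in the others and 5.03% in control, at sums of 18.5 FPKM with rotenone, 7.99 to 55.3 FPKM in the others and 31.2 FPKM in control. Cenpc1, the centromere protein CENP-C, drew 0.00517% of its end FPKM with rotenone from an end that held 98.2% to 99.4% in the others and 99.4% in control. Metrn, a factor of glial differentiation and axon growth, drew 20.2% from its main end with rotenone, 79.2% to 88.9% in the others and 86.7% in control, at sums of 143 FPKM with rotenone and 196 FPKM in control. In Golga2, by contrast, the start that held 87.0% with rotenone also held 86.8% with DDT and 80.1% with imidacloprid, against 0% in control, so 3 libraries shared that switch.

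**Figure D5:**
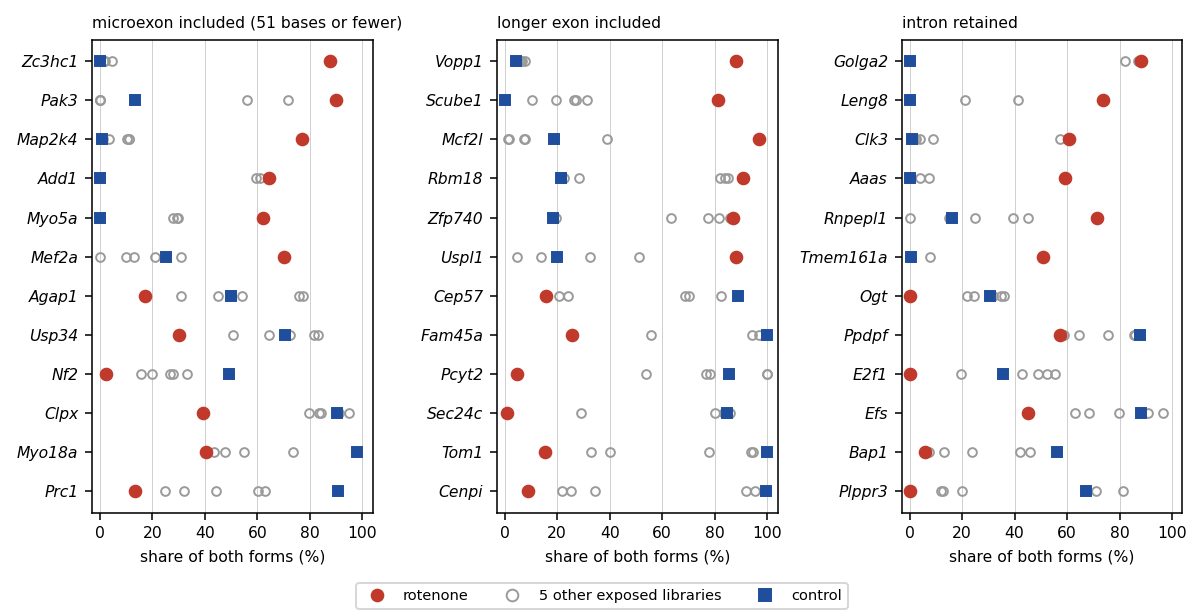
Share of FPKM in percent held by the exon-included or intron-retained form, 1 row per event, with filled circles for rotenone, open circles for the other exposed libraries and squares for control. Zc3hc1 is at 87.6% with rotenone and at 0% in control, and Clpx is at 39.3% with rotenone and at 90.3% in control.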

How the data were processed

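Total RNA of 7 cultures was sequenced, and groups were taken from the sample titles. Per the submitters' processing notes, the tools named are HISAT2 2.0.1, cutadapt 1.9.1 and bcl2fastq 2.17.1.14, and the build is GRCm38. The deposited files give FPKM per event, per the file headers, and list only values above 0. The FPKM estimator was not given in the sources used here. Depth is unknown and the values are estimates, so no interval or floor is given. With 1 library per group, which the labels do not tie to separate experiments, nothing measures variation between cultures.

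Lines that repeat an event and type were dropped from each library, 5388 to 5620 of them. Start and end FPKM were summed per gene by the gene identifier in the files. Another 2011 genes had sums that disagreed, 2157 had starts only and 149 ends only, with a sum under 5% of the other counted as missing; these have no fold. A gene was named only where at least 90% of its FPKM lay on exon boundaries that GENCODE M21 gives that gene, which held for 5985 of 6299 genes. Genes with 1 exon have no event. Shares used events with a summed 5 FPKM or more in every library. Named genes were up to 12 each way with the largest gap between rotenone and the nearest other library. Named events were up to 6 each way with the largest difference from control, drawn only from those with rotenone outside all 6 other libraries. Predicted models, clone names and pseudogenes were left out. Up to 5 members per list, plus its defining members, were named, and a few such members are left unreported. The members, lists and rules were chosen with earlier results of these data known, and 5 gene families were added later. Promoters were found for 4767 of 5978 genes, a median of 18 bases from the nearest start event. Steps were tested on simulated data with less noise than these data and with changes larger than the thresholds. Errors in calls near a threshold were not tested. Python 3.11.15, pandas 2.3.3, numpy 2.4.6 and matplotlib 3.10.9 were used. Alternatives were other pseudocounts, level and agreement filters, single ends, share thresholds, the median of the other 6 libraries as base, and leaving out each library.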

Additional observations from a re-analysis of the deposited data

Results flagged for a closer look

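The list of dopamine neuron and Parkinson genes went one way with rotenone and the other way with the other 5 insecticides. Its median log2 difference from control was -0.11 with rotenone and between 0.05 and 0.17 with the others. The rotenone median was -0.04 with no agreement filter, -0.07 with a pseudocount of 5 FPKM and also -0.07 at a mean of at least 5 FPKM. Of 30 genes 9 could be used, of which 2 were higher and 7 lower with rotenone, and rotenone was the lowest of the 7 libraries in 5. Htra2 had the largest difference, with 13.2 FPKM with rotenone and 23.2 FPKM in control. The midbrain transcription factor En1 stood at 2.86 FPKM with rotenone, 3.43 to 3.64 FPKM in the other exposed libraries and 3.28 FPKM in control. Nr4a2, another, stood at 2.60 FPKM with rotenone, 2.62 to 3.43 FPKM in the others and 2.95 FPKM in control. Th, Slc6a3 and Pitx3, which define dopamine neurons, have no event in these files, so no value bears on such neurons directly. The difference between insecticides was not tested, because each has 1 library.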

How the results depend on the processing

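The count of genes at 2-fold or more moved from its 103 with the settings, to 190 with a pseudocount of 0.1 FPKM, 41 with 5 FPKM, 66 at a mean of at least 5 FPKM, 252 with no agreement filter and 50 with the median of the other 6 libraries as base. The count that also lay outside the other 6 was 103, 25, 36 and 134 under the first 4 of these settings, and 62 to 66 when 1 other exposed library was left out. The mesenchymal median was 0.38 with the pseudocount of 0.1, 0.14 with 5, 0.10 at a mean of at least 5, where 2 members were left, and 0.18 with no agreement filter. The ATP synthase median was 0.11 with ends within 0.15, 0.17 with no agreement filter, 0.19 from starts, 0.11 from ends and 0.10 against the median of the other 6. That of complexes II to IV was 0.089 with no agreement filter, and that of complex I was 0.041 against the median of the other 6. The S phase median was -0.077 with a pseudocount of 5 and -0.16 with no agreement filter, and that of G2 and mitosis -0.075 with no agreement filter and -0.11 against the median of the other 6. The oligodendrocyte median turned to -0.017 with no agreement filter and -0.026 from ends, against 0.09, with 4 members used. Start and end events at 2-fold or more were 850 at a mean of at least 5 FPKM, against 2027. Changed skipped exons were 313 at a sum of 10 FPKM, 1081 at 2 FPKM, 1360 at 10 points and 402 against the median of the other 6, beside 626. Retained introns were 80, 277 and 357 and alternative exon ends 156, 519 and 727 under the first 3 of these. Genes with changed start or end use were 156 at 10 FPKM, 860 at 10 points and 170 against the median, beside 260. The cause of these moves was not tested. The medians of the stress response, the 3 respiratory lists, S phase, mitosis, astrocyte and mesenchymal markers kept their sign under every alternative run. Counted over all pairs of a named gene and an alternative, 249 stayed past 2-fold and 26 did not. Against the median of the other 6 libraries, Swi5 was the only higher named gene still past 2-fold, at 1.18. Ndufa7 was then at 0.97, Lars2 at 0.88 and Mmp14 at 0.14. Of the 12 lower named genes, all but Scly and Ube2k stayed past 2-fold against that median. Swi5 hardly sets rotenone apart, at 162 FPKM with rotenone, 158 FPKM with DDT and 150 FPKM with chlorpyrifos. The rest, control included, lay between 68.3 and 72.2 FPKM in Swi5. No paired analysis was possible because each group has 1 library. The missing depth limits every value.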

Other observations

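Immediate early genes, which respond within minutes to activity and stress, stood above control in 7 of 9 members used; their median log2 difference was 0.20 with rotenone against 0.06 to 0.17 with the other insecticides. The control was the lowest library in 4 of the 9, and the median was 0.02 where the 6 libraries other than rotenone took the place of control, 0.07 with no agreement filter and 0.09 with a pseudocount of 5 FPKM. Fos, the leading member, stood at 4.74 FPKM with rotenone, 2.53 to 4.69 FPKM in the other exposed libraries and 2.66 FPKM in control. For p53 targets 9 of 13 were higher (median 0.16), inside the 0.04 to 0.19 of the others. Of 7 apoptosis genes 5 were higher (median 0.05), also inside the range of the others. Of 46 cytosolic ribosomal proteins 35 were higher (median 0.06), where the others ran from -0.02 to 0.09. Proteasome subunits split into 12 higher and 12 lower, and cytosolic heat shock genes into 6 and 7.

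Genes of mitochondrial DNA upkeep and biogenesis were lower in 8 of 13 with rotenone. Their median was -0.09, inside the -0.14 to 0.04 of the other insecticides, and -0.02 against the median of the other 6 libraries. Rotenone was the lowest library in 2 of the 13 genes. The sum over the 13 genes was 156 FPKM with rotenone, 168 to 196 FPKM in the other exposed libraries and 193 FPKM in control. Mtif3, a mitochondrial translation initiation factor, stood at 3.58 FPKM with rotenone, 4.69 to 7.82 FPKM in the others and 7.02 FPKM in control, below every other library.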
